A study of Sus scrofa with 18 samples.

Results

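Poly I:C, a synthetic double-stranded RNA that stands in for viral RNA, was added to porcine alveolar macrophages exposed to Enterococcus faecium, and the comparison asks what it changed in the presence of that bacterium. The 3 libraries of cells given E. faecium and poly I:C, here the combined libraries, were set against the 3 libraries given E. faecium alone, chosen by their treatment labels, 6 of the 18 libraries of the study. The macrophages were taken ex vivo from healthy pigs of a Landrace and Yorkshire cross and kept in culture, with treatment lasting 24 hours. The other groups were untreated cells, poly I:C alone, Bacillus subtilis, and B. subtilis with poly I:C, each in 3 libraries. Only the untreated and the poly I:C libraries are used here besides the 6, as a second measure of poly I:C with no library in common. The labels use the same 3 pig numbers in every treatment, so the libraries of both measures may come from the same animals. The labels give no strain, no dose of bacteria or poly I:C, and do not say whether the E. faecium was live.

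Double-stranded RNA is sensed by Toll-like receptor 3 in endosomes and by the helicases RIG-I (DDX58) and MDA5 (IFIH1) in the cytosol. Their signals pass through the kinase TBK1 to interferon regulatory factors, which start transcription of type I interferon, and through NF-kB, which drives inflammatory cytokines. Secreted interferon then acts through JAK kinases and a complex that holds STAT2 and IRF9 on a large set of interferon-stimulated genes. Gram-positive bacteria such as E. faecium are sensed mainly through lipoproteins by TLR2 and through fragments of the cell wall by NOD2, which lead to NF-kB. Alveolar macrophages are the resident phagocytes of the air spaces and meet both kinds of signal.

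The unit throughout is CPM, counts scaled to a megacount of a library total corrected for composition by TMM, and the values are given for libraries 1, 2 and 3 of a treatment in that order. A gene was called at an adjusted p of 0.05 in edgeR's quasi-likelihood test over all 13592 genes tested, and fold changes are log2 of E. faecium with poly I:C over E. faecium alone ± SE, n = 3 per treatment. The 6 libraries held 16.4 to 26.3 megacounts. All 12 macrophage markers were detected, with a summed level of 4920 to 8160 CPM in E. faecium and 5520 to 8040 CPM with poly I:C added. Markers of T, NK and B cells summed to 1040 to 1430 and 910 to 1790 CPM, those of neutrophils and mast cells to 1960 to 3030 and 1310 to 4750 CPM, and those of monocytes and dendritic cells to 610 to 790 and 583 to 1270 CPM. Epithelial markers summed to 38.7 to 125 and 44.6 to 234 CPM, and endothelial and fibroblast markers to 6.05 to 11.6 and 6.67 to 12 CPM, with CDH5, CLDN5, KRT5, CPA3, MMP8, MPO and CLEC10A at 0 in all 6. Few genes carried several of these sums. In E. faecium the mean CPM was 816 for JCHAIN and 341 for NKG7, but 3.29, 7.35 and 4.06 for CD3D, CD3E and CD3G. It was 481, 940 and 1040 for S100A8, S100A9 and S100A12 of the neutrophil list, with S100A8 in the monocyte list too, and 64.5 for EPCAM. In the macrophage list it ran from 2720 for LYZ to 2.39 for FABP4, with 886 for SPI1, 543 for CD68 and 45.4 for MARCO. The summed ranges of the treatments overlapped for every marker list. Single markers of other cells called higher were TCF4, of dendritic cells (1.67 ± 0.39, adjusted p = 0.0092, and 0.052 under library totals), CD2, of lymphocytes (1.40 ± 0.43, adjusted p = 0.0365), and TEK, of endothelium (1.92 ± 0.61, adjusted p = 0.0429). They were the only calls among 13, 26 and 5 tested members of their lists, of which 11, 15 and 2 had positive changes. Mean CPM of CD3E went from 7.35 to 5.22 and of PECAM1 from 3.56 to 2.87, and that of TEK from 0.813 to 3.13. The adjusted p of CD2 was 0.124 and 0.143 without E. faecium libraries 2 and 3 and 0.0919 and 0.12 without combined libraries 1 and 2, and that of TEK 0.074 to 0.148 without any of the 6. The part of such cells in the results was not tested. In bulk RNA, fewer cells of a type and less RNA per cell cannot be told apart.

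The labels number the libraries by pig, but numbers 1 and 2 did not line up between these treatments. Over the 1000 genes that varied most within treatments, deviations from the treatment mean correlated at -0.44 between the libraries numbered 1, at -0.45 between those numbered 2 and at 0.81 between those numbered 3. E. faecium library 1 went with combined library 2 at 0.78, and E. faecium library 2 with combined library 1 at 0.78. Libraries that deviated together are called sets: set A holds library 3 of both treatments, set B holds E. faecium library 2 and combined library 1, and set C holds E. faecium library 1 and combined library 2. The sets were read from the data, and the main test uses neither numbers nor sets. Its p-values measure the spread between these libraries.

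Addition of poly I:C changed 15.8% of the genes tested, with 2153 called. Of these, 1290 (9.49% of all tested) were higher and 863 (6.35%) were lower. Rises were also larger than falls: 392 genes rose and 101 fell by more than 2 on the log2 scale, and 156 rose and 15 fell by more than 3. Among the called genes, the 3 libraries of one treatment lay wholly above or below the other 3 for 1279 of the higher and 851 of the lower genes, where 18.2% of all tested genes did so upward and 16.8% downward. Nearly all called genes thus had the treatments apart. Where this is stated for single genes below, it describes them and adds no support to the call. The split depended on scaling, with 1090 higher and 1147 lower genes under upper-quartile scaling and 728 higher and 2631 lower under library totals alone. The median fold change of all genes tested was -0.04 under TMM, -0.14 under upper-quartile scaling and -0.45 under library totals, and the changes below are relative to the TMM value. List counts given below for library totals alone stand against 728 higher and 2631 lower of 13592 genes, and list medians against -0.45. The TMM factors were 1.11, 1.38 and 1.12 in E. faecium and 0.928, 0.915 and 0.875 with poly I:C.

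**Figure D1:**
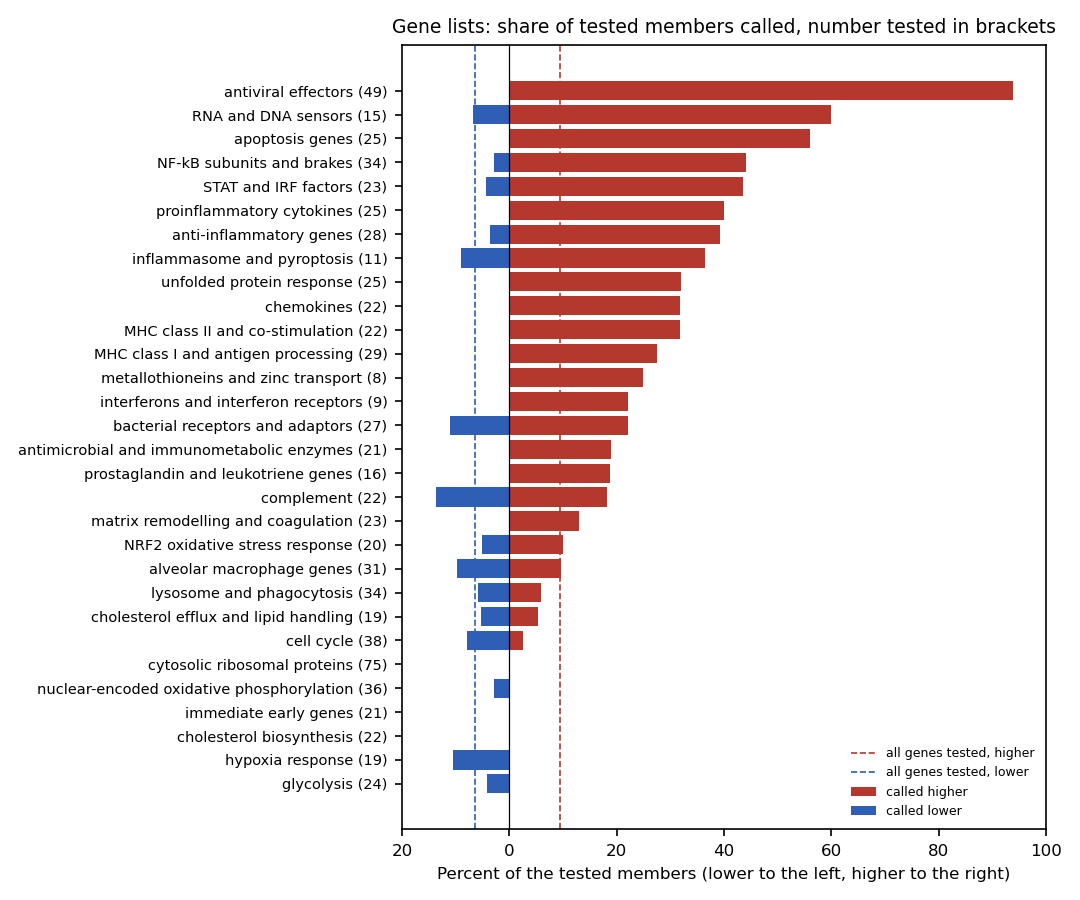
Share of each gene list called higher (red, to the right) or lower (blue, to the left) after poly I:C was added to E. faecium, in percent of the tested members, whose number stands in brackets. Dashed lines mark the share among all 13592 genes tested, 9.49% higher and 6.35% lower; antiviral effectors lead with 93.9% called higher, and ribosomal proteins, immediate early and cholesterol synthesis genes have none called.

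Antiviral effectors, the interferon-stimulated proteins that block steps of viral replication, rose nearly throughout. Of the 49 tested members of a list of 63, 46 were called higher and 0 lower (93.9%, against 9.49% of all genes), with a median fold change of 2.09 against -0.04 for all genes. ISG15, a ubiquitin-like modifier secreted and conjugated during viral infection, stood at 838, 477 and 336 CPM in E. faecium and at 5611, 8700 and 9693 CPM with poly I:C. It rose by 3.86 ± 0.85 (edgeR adjusted p = 0.00606), and the lowest library with poly I:C lay above the highest without it. MX1, a GTPase that traps viral nucleocapsids, went from 752, 611 and 283 to 3617, 4330 and 4741 CPM, a rise of 2.95 ± 0.58 (adjusted p = 0.00307) with no overlap. In both genes the E. faecium library 3, of set A, was the lowest and combined library 3, of the same set, the highest.

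OASL, a relative of the oligoadenylate synthetases that enhances RIG-I signalling, had the largest rise of the list. Its levels of 3.19, 1.57 and 0.273 CPM in E. faecium gave way to 85, 110.1 and 76.2 CPM, a change of 5.74 ± 0.99 (adjusted p = 0.00124). The E. faecium values spanned a wide range while those with poly I:C were close together. SAMHD1, which depletes the nucleotides that viruses need for reverse transcription, rose by 3.65 ± 0.42 from 81.8, 43.1 and 38.4 to 466, 785 and 793 CPM (adjusted p = 9.66e-05). HERC5, the ligase that attaches ISG15, rose by 3.21 ± 0.52, and IFIT3, of a family that binds foreign RNA ends, by 2.90 ± 0.47. EPSTI1 rose by 2.32 ± 0.24, IFI44L by 2.34 ± 0.31, the antibody receptor TRIM21 by 1.98 ± 0.27 and the RNA granule protein TDRD7 by 1.81 ± 0.20. These 7 genes, SAMHD1 included, had the treatments apart in all libraries and stayed called without any single library. RSAD2 (viperin), which makes a chain-terminating nucleotide, rose by 3.51 ± 0.96 (adjusted p = 0.0214) from 1231, 359.8 and 134 to 5344, 8962 and 5389 CPM. Its adjusted p was 0.0904 without E. faecium library 2, 0.0821 without E. faecium library 3 and 0.0614 without combined library 2. The uncalled members were BST2 with 1.96 ± 0.69 (adjusted p = 0.0691), IFI35 with 0.90 ± 0.40 (0.15) and UBA7 with 2.59 ± 1.06 (0.116), all with positive values. Set A had the largest median change of the list at 2.58, set B 2.01 and set C 1.72. Under library totals alone 39 of the 49 were called higher, with a median of 1.69.

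**Figure D2:**
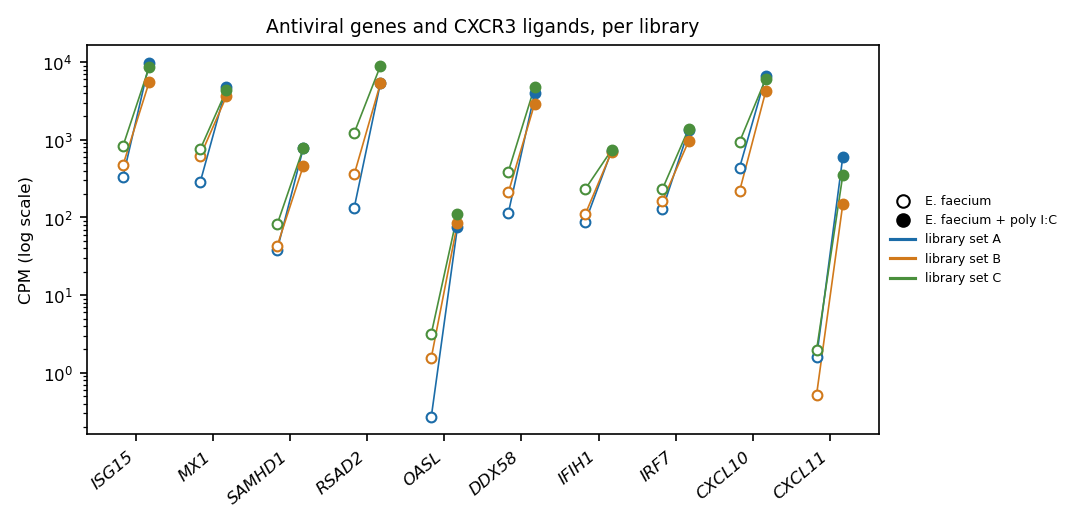
CPM on a log scale in each E. faecium library (open circles) and each library with poly I:C added (filled circles) for antiviral effectors, RNA sensors, IRF7 and the CXCR3 ligands CXCL10 and CXCL11, with lines joining libraries of the same set. ISG15, for example, has 336 to 838 CPM in E. faecium and 5611 to 9693 CPM with poly I:C.

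Of the sensors of double-stranded RNA, those of the cytosol rose and the endosomal TLR3 did not pass the test. In the list of RNA and DNA sensors 9 of 15 tested members were called higher and 1 lower (60% against 9.49%, and 6.67% against 6.35%), with a median of 1.33. DDX58 was at 391, 210.1 and 115 CPM in E. faecium and at 2892, 4784 and 3952 CPM with poly I:C, a rise of 4.02 ± 0.60 (adjusted p = 0.00047). IFIH1 went from 234, 111 and 88.6 to 702, 739 and 723 CPM and rose by 2.32 ± 0.41 (adjusted p = 0.00158). Their groups did not overlap, and the 3 values of IFIH1 with poly I:C were close together. DHX58 (LGP2), the regulatory relative of both, rose by 2.70 ± 0.54, and MB21D1 (cGAS), the sensor of cytosolic DNA, by 2.13 ± 0.34. TLR3 had 8.06, 12.3 and 4.2 and 12.4, 9.86 and 7.7 CPM, with overlapping groups and a fold change of 0.28 ± 0.57 (adjusted p = 0.807). NLRX1, a mitochondrial protein described as a brake on RNA sensing, fell by 1.03 ± 0.24 (adjusted p = 0.00953), from 25.9, 23.4 and 30.9 to 12.1, 15.1 and 11.9 CPM.

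Interferon beta (IFNB1, chromosome 1, 201850935 to 201851495, build Sscrofa11.1) was low in E. faecium at 3.64, 0.22 and 0.6 CPM and reached 34.9, 15.9 and 10.7 CPM with poly I:C. It rose by 3.81 ± 0.94 (adjusted p = 0.0123), and its adjusted p was 0.0624 without E. faecium library 3. The lowest library with poly I:C was above the highest without it. IFNLR1, the receptor chain for type III interferon, was the other called member of the list of interferons and their receptors. Of the 9 tested members of that list 2 were higher and 0 lower (22.2% against 9.49%, median 0.61). The median was 0.24 under library totals alone, 0.36 without E. faecium library 2 and 0.39 without combined library 3. IFN-ALPHA-10, IFN-ALPHA-5 and IFN-ALPHAOMEGA, which are outside the list, were also called higher and are described under the other observations. The IFNLR1 level of 5.55, 1.24 and 3.05 CPM became 31.4, 21 and 21.2 CPM, a rise of 2.92 ± 0.52 (adjusted p = 0.00169). The type I interferon receptor chains were not called, with -0.47 ± 0.38 for IFNAR1 (adjusted p = 0.466) and 0.61 ± 0.33 for IFNAR2 (0.233). IFNG, the type II interferon of lymphocytes, was at 2.01 CPM or less in every library.

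Transcription factors of the interferon pathway had a smaller median change than its effectors. Of 23 tested STAT, IRF and related genes 10 were called higher and 1 lower (43.5% against 9.49%, and 4.35% against 6.35%), with a median of 0.82, or 0.43 under library totals alone. IRF7, which amplifies interferon alpha production, was at 233, 163 and 127 CPM and then at 964, 1390 and 1325 CPM, a rise of 2.81 ± 0.51 (adjusted p = 0.00187). STAT2, at 682, 288 and 340 CPM, reached 1389, 1924 and 1927 CPM and rose by 2.00 ± 0.31 (adjusted p = 0.000583), while IRF9 rose by 1.04 ± 0.16. The kinase JAK2 rose by 2.30 ± 0.30. None of these 4 had overlapping groups. IRF1 was not called, at 0.60 ± 0.43 (adjusted p = 0.406), and E. faecium library 1 with 731 CPM lay above combined library 1 with 479.6 CPM. STAT6, the mediator of interleukin-4 signalling, fell by 1.16 ± 0.19 (adjusted p = 0.00105), with 282, 238 and 298 CPM in E. faecium and 122, 115 and 129 CPM with poly I:C.

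Ligands of the chemokine receptor CXCR3, which draw T and NK cells, rose, CXCL11 by the most. CXCL11 (chromosome 8, 71713790 to 71725669) was at 1.97, 0.523 and 1.58 CPM in E. faecium and at 147, 349 and 600.3 CPM with poly I:C, a rise of 8.11 ± 0.95 (adjusted p = 9.97e-05). CXCL10, its neighbour (chromosome 8, 71693641 to 71695948), started higher at 939, 217 and 436 CPM, reached 4197, 6101 and 6555 CPM and rose by 3.40 ± 0.49 (adjusted p = 0.000395). For both, E. faecium library 2 of set B was lowest, and the treatments did not overlap. CXCL9 rose by 3.52 ± 1.03 from 2.41, 0.606 and 2.23 to 5.24, 38.5 and 15.4 CPM (adjusted p = 0.0309). Leaving out 1 library at a time, its adjusted p was 0.0587, 0.122 and 0.0834 without E. faecium libraries 1, 2 and 3, and 0.136 and 0.0535 without combined libraries 2 and 3.

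In the whole list, 7 of 22 tested chemokines were called higher and 0 lower (31.8% against 9.49%), with a median of 1.28. CCL5 (RANTES), an attractant of T cells and monocytes, went from 915, 415 and 604 to 2484, 6352 and 5622 CPM and rose by 2.90 ± 0.61 (adjusted p = 0.00451) with no overlap. CCL20, which attracts cells bearing CCR6, went from 66.1, 3.61 and 43.4 to 388, 273 and 580.4 CPM and rose by 3.46 ± 0.87 (adjusted p = 0.014, or 0.052 without E. faecium library 3). The E. faecium values of CCL20 differed widely, with library 2 far below the other two. CXCL8, the neutrophil attractant, was abundant throughout, at 16420, 4331 and 9321 CPM and 29030, 20140 and 19750 CPM. Its groups did not overlap, but the change of 1.20 ± 0.45 was not called (adjusted p = 0.0849); without E. faecium library 1 the adjusted p was 0.0214. CCL4 had 1.87 ± 0.66 (adjusted p = 0.0701), called without E. faecium library 1 (adjusted p = 0.0067), and CCL2 1.39 ± 1.03 (0.415). Reads of CCL3L1, CXCL2 and other chemokines with close copies may be split between copies.

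**Figure D3:**
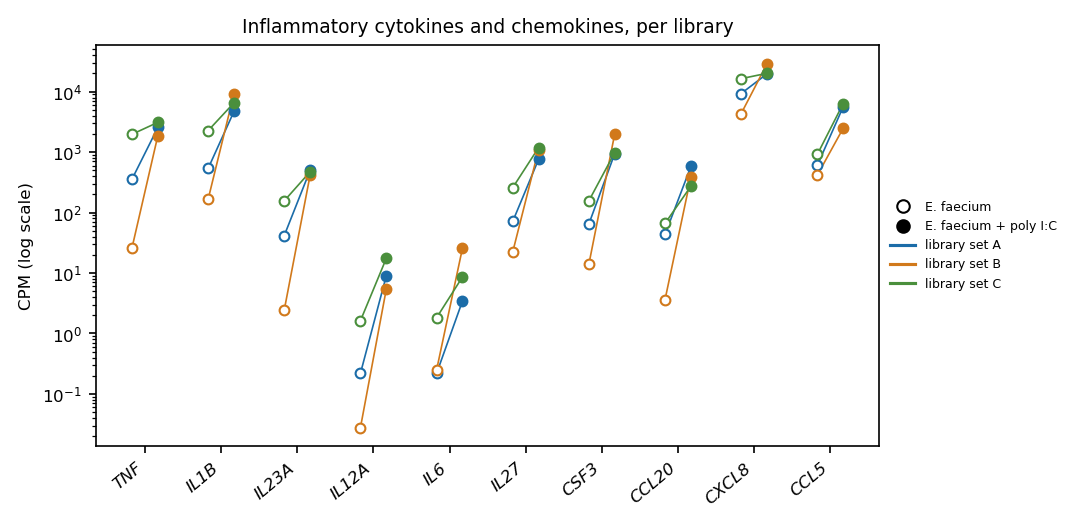
CPM on a log scale in each E. faecium library (open) and each library with poly I:C added (filled) for cytokine and chemokine genes, with lines joining libraries of the same set. E. faecium library 2 (set B) is the lowest open circle for TNF with 26 CPM and for IL23A with 2.45 CPM, while the filled circles of both genes lie close together.

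Of the interleukin-12 family, EBI3, IL27, IL12A and IL23A were called higher. EBI3, the beta chain of interleukin-27 and interleukin-35, went from 7.96, 6.5 and 3.05 to 83.8, 105 and 52.8 CPM, a rise of 3.78 ± 0.55 (adjusted p = 0.000396). IL27, its partner chain in interleukin-27, went from 258, 22.3 and 71.3 to 1104, 1187 and 760.3 CPM and rose by 3.12 ± 0.68 (adjusted p = 0.00613). The treatments did not overlap in either gene, and both stayed called without any single library. IL12A, the p35 chain of interleukin-12, rose by 4.15 ± 1.00 from 1.62, 0.0276 and 0.218 to 5.42, 17.5 and 9.03 CPM (adjusted p = 0.0105, or 0.0548 without E. faecium library 3). IL23A, the p19 chain of interleukin-23, was at 157, 2.45 and 41.7 CPM and reached 420.1, 474 and 503 CPM, a rise of 2.80 ± 0.87 (adjusted p = 0.0396). Its adjusted p was 0.145 without E. faecium library 3 and 0.0597, 0.0823 and 0.0857 without combined libraries 1, 2 and 3. IL12B, the p40 chain that interleukin-12 and interleukin-23 share, was not called. Its libraries ran from 0.0551 to 45.5 CPM in E. faecium and from 0.364 to 59.3 CPM with poly I:C, and the groups overlapped fully.

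TNF and the interleukin-1 genes were spread widely over the E. faecium libraries. TNF was at 1972, 26 and 356 CPM in E. faecium and at 1873, 3109 and 2560 CPM with poly I:C. The highest E. faecium library lay above the lowest with poly I:C, and the change of 1.68 ± 0.86 was not called (adjusted p = 0.218); without E. faecium library 1 it was (adjusted p = 0.00799). IL1B, at 2268, 166 and 537 and 9313, 6548 and 4724 CPM, rose by 2.79 ± 0.91 with an adjusted p of 0.0481. That call was lost without E. faecium library 2 (adjusted p = 0.141) or 3 (0.17) and without combined library 1 (0.107), 2 (0.093) or 3 (0.0724). IL1B has close copies in the pig genome, between which reads may be split. IL6 went from 1.82, 0.248 and 0.218 to 25.7, 8.6 and 3.44 CPM, and its change of 4.07 ± 1.34 missed the threshold (adjusted p = 0.051, and 0.038 without E. faecium library 1). CSF3, the granulocyte growth factor, rose by 4.07 ± 0.98 from 156, 13.9 and 64.7 to 2011, 985 and 947 CPM (adjusted p = 0.0104, or 0.0529 without E. faecium library 3).

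TNFSF10, TNFSF13B and IL15 were called without any single library. TNFSF10 (TRAIL), a ligand that triggers apoptosis, rose by 2.82 ± 0.42 from 337, 117 and 153 to 1035, 1582 and 1668 CPM (adjusted p = 0.000505). TNFSF13B (BAFF), a survival factor of B cells, rose by 2.05 ± 0.32, and IL15, which sustains NK and memory T cells, by 2.70 ± 0.57 from 18.9, 5.32 and 7.31 to 41.2, 101 and 62.6 CPM. In all 3 genes every library with poly I:C lay above every library without it. Over the list, 10 of 25 tested proinflammatory cytokines were called higher and 0 lower (40% against 9.49%), with a median of 2.05, which was 3.41 without E. faecium library 1 and 1.38 without combined library 1. The median change was 2.36 in set A, 3.15 in set B and 0.67 in set C. IL10, the anti-inflammatory cytokine, went from 2.26, 2.45 and 1.53 to 9.84, 4.76 and 4.22 CPM without a call (1.58 ± 0.69, adjusted p = 0.143).

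Several genes of NF-kB and several inhibitors of cytokine signalling rose. Of 34 tested NF-kB subunits and brakes 15 were called higher and 1 lower (44.1% against 9.49%, and 2.94% against 6.35%), with a median of 0.75, or 1.21 without E. faecium library 1; under library totals alone 9 were higher and 2 lower, with a median of 0.40. The member called lower was OTULIN, a deubiquitinase that restrains NF-kB (-0.54 ± 0.17, adjusted p = 0.0469, and 0.0723 to 0.132 without any 1 of the 6 libraries), and CYLD, of like function, was not called (0.62 ± 0.21, adjusted p = 0.0575). TNIP3, a partner of the deubiquitinase A20 that dampens NF-kB, was at 27.6, 8.57 and 16.1 CPM and then at 114, 113 and 150.2 CPM, a rise of 2.85 ± 0.38 (adjusted p = 0.000237). ZC3H12A (Regnase-1), an RNase that degrades cytokine messages, rose by 1.59 ± 0.33, TNIP1 by 1.39 ± 0.28 and the inhibitor NFKBIE by 1.15 ± 0.26. Neither of the first 2 had overlapping groups, and E. faecium library 2 was the lowest in both. SOCS1, the inhibitor of JAK kinases, went from 73.7, 12.5 and 37.8 to 139.6, 178 and 219 CPM and rose by 2.12 ± 0.41 (adjusted p = 0.00305). SOCS3 rose by 2.10 ± 0.51 (adjusted p = 0.011, but 0.0516 and 0.0601 without E. faecium library 2 or 3).

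The broader list of anti-inflammatory genes had 11 of 28 tested members called higher and 1 lower (39.3% against 9.49%, and 3.57% against 6.35%; median 0.58), and 6 higher and 3 lower under library totals alone (median 0.16). The checkpoint ligands were among them. PDCD1LG2 (PD-L2) went from 26.1, 22.9 and 15.7 to 88.8, 126 and 136 CPM, a rise of 2.44 ± 0.33 (adjusted p = 0.000258), and CD274 (PD-L1) from 494, 159 and 138 to 1037, 1075 and 1177 CPM, a rise of 2.06 ± 0.44 (adjusted p = 0.00522). Neither had overlapping groups, and CD274 with poly I:C was nearly the same in the 3 libraries. IL10RA, the receptor chain for interleukin-10, rose by 1.27 ± 0.25.

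Enzymes of tryptophan breakdown and of itaconate synthesis rose within a wider list of antimicrobial and immunometabolic enzymes. Of its 21 tested members 4 were called higher and 0 lower (19.0% against 9.49%), with a median of 0.12. Under library totals alone the median was -0.29, against -0.45 for all genes. IDO1, which opens the kynurenine pathway and starves microbes of tryptophan, went from 786, 193 and 189 to 3155, 4868 and 3101 CPM, a rise of 3.25 ± 0.61 (adjusted p = 0.00238). KYNU, a later enzyme of that pathway, rose by 1.94 ± 0.31 (adjusted p = 0.000744). ACOD1, which makes the antimicrobial metabolite itaconate, went from 618, 122 and 437 to 2118, 2612 and 4024 CPM, a rise of 2.89 ± 0.48 (adjusted p = 0.00106). The groups were apart in all 3 genes, and E. faecium library 2 was the lowest or next to the lowest of its treatment. NOS2, the inducible nitric oxide synthase, was below 1 CPM in E. faecium and at 1.09, 7.67 and 2.26 CPM with poly I:C, and its change of 2.92 ± 1.22 was not called (adjusted p = 0.124).

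Antigen presentation rose in part. In MHC class I and antigen processing 8 of 29 tested genes were called higher and 0 lower (27.6% against 9.49%), with a median of 0.52, and 3 higher and 1 lower under library totals alone, with a median of 0.13. TAP1, one subunit of the transporter that brings peptides to class I molecules, went from 577, 287 and 429 to 896, 1177 and 1154 CPM and rose by 1.32 ± 0.24 (adjusted p = 0.00191). Its partner TAP2 rose by 1.41 ± 0.27, and the class Ib gene SLA-7 by 1.01 ± 0.17 from 93.4, 57.5 and 73.7 to 145, 150.2 and 158 CPM. These 3 genes did not overlap between treatments, though reads of SLA genes may be split between near-identical copies. PSMB9, an immunoproteasome subunit, rose by 1.09 ± 0.33 (adjusted p = 0.0343). Its adjusted p was 0.14 and 0.0829 without E. faecium libraries 2 and 3, and 0.1 and 0.092 without combined libraries 2 and 3. B2M, the light chain of class I, had 0.50 ± 0.24 (adjusted p = 0.182) and was not called.

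Co-stimulatory molecules had the lowest p on the class II side, where 7 of 22 tested genes were higher and 0 lower (31.8% against 9.49%; median 0.89), and 4 and 1 under library totals alone (median 0.47). CD86, which engages CD28 on T cells, went from 246, 184 and 165 to 519, 546 and 709.6 CPM, a rise of 1.58 ± 0.21 (adjusted p = 0.000233). CD40, the receptor through which T cells license macrophages, went from 192, 40.4 and 91.2 to 433, 745 and 476 CPM and rose by 2.36 ± 0.53 (adjusted p = 0.00712). CD48, a ligand of the NK receptor CD244, rose by 1.65 ± 0.30 from 651, 244 and 479 to 1175, 1573 and 1555 CPM. All 3 were apart between treatments and called without any single library. SLA-DRA, the class II alpha chain, rose by 1.27 ± 0.32 (adjusted p = 0.013, but 0.0634 without E. faecium library 2 and 0.0554 without combined library 3).

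Receptors and adaptors of bacterial sensing moved both ways. Of 27 tested, 6 were called higher and 3 lower (22.2% against 9.49%, and 11.1% against 6.35%), with a median of 0.10. Under library totals alone 3 were higher and 5 lower, with a median of -0.28. Among all 13592 genes, 728 were then higher and 2631 lower, with a median of -0.45. UNC93B1, which escorts nucleic acid sensing Toll-like receptors to endosomes, rose by 1.74 ± 0.35 from 238, 278 and 197 to 634, 952 and 800 CPM (adjusted p = 0.00371). RIPK2, the kinase behind NOD2, rose by 1.45 ± 0.33, and TIRAP, an adaptor of TLR2 and TLR4, by 1.18 ± 0.23. TLR2 rose by 1.01 ± 0.26 from 214, 245 and 169.7 to 509, 378 and 379 CPM (adjusted p = 0.014, but 0.074 without E. faecium library 3 and 0.0561 without combined library 1). TLR8, which binds single-stranded RNA inside endosomes, fell by 2.17 ± 0.42 (adjusted p = 0.00266), from 33.7, 83 and 27.3 to 11.5, 8.16 and 12.3 CPM, and CARD9, the adaptor of fungal lectin receptors, fell by 1.69 ± 0.31 (adjusted p = 0.00207), from 67.7, 67.8 and 81 to 20.5, 27.3 and 19.2 CPM. Both lay lower in every library with poly I:C. TLR4 (-0.55 ± 0.46, adjusted p = 0.481) and TLR7 (0.31 ± 0.34, adjusted p = 0.603) were not called.

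Genes of apoptosis rose on both sides of the balance between survival and death. Of 25 tested members 14 were called higher and 0 lower (56.0% against 9.49%), with a median of 0.85, and 7 higher and 2 lower under library totals alone, with a median of 0.45. PMAIP1 (Noxa), which promotes death, went from 146, 65.3 and 42.5 to 585, 817 and 598 CPM and rose by 2.98 ± 0.54 (adjusted p = 0.00188). BCL2, which protects from it, went from 28.3, 11.8 and 3.33 to 139, 119 and 79.4 CPM and rose by 2.96 ± 0.63 (adjusted p = 0.00536), and the protective MCL1 rose by 1.19 ± 0.20. BCL2L14, another relative of BCL2, rose by 2.30 ± 0.29, and CASP10, an initiator caspase, by 1.27 ± 0.28. None of these 5 overlapped between treatments. CASP1, the protease that matures interleukin-1 beta, rose by 2.48 ± 0.41 from 26.3, 17 and 16.3 to 77.1, 145 and 109 CPM (adjusted p = 0.00104). It belongs to the inflammasome list, of which 4 of 11 tested genes were called higher and 1 lower (36.4% against 9.49%, and 9.09% against 6.35%, median -0.14). Under library totals alone 2 were higher and 4 lower, where 728 of all 13592 genes were higher and 2631 lower.

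The unfolded protein response, which expands the folding capacity of the endoplasmic reticulum, had 8 of 25 genes called higher and 0 lower (32.0% against 9.49%), with a median of 0.65, and 4 higher and 0 lower under library totals alone, with a median of 0.27. XBP1, its transcription factor, went from 113, 118 and 84.4 to 467, 436 and 301 CPM and rose by 1.93 ± 0.35 (adjusted p = 0.00198). The cochaperone DNAJC3 rose by 0.93 ± 0.16 and HERPUD1, of the degradation pathway, by 1.04 ± 0.21. DNAJB9 rose by 1.09 ± 0.22 and the translocon subunit SEC61A1 by 1.10 ± 0.25, and these calls were lost under library totals alone (adjusted p = 0.0752 and 0.0966). The groups did not overlap in these 5 genes. HSPA5, the main chaperone, had 1.04 ± 0.39 (adjusted p = 0.0861).

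Complement genes went in both directions. Of 22 tested, 4 were called higher and 3 lower (18.2% against 9.49%, and 13.6% against 6.35%), with a median of 0.28. Under library totals the median was -0.13, against -0.45 for all genes. C1R, a protease of the first component, went from 8.65, 13.7 and 11.1 to 96.2, 128 and 115 CPM, a rise of 3.34 ± 0.40 (adjusted p = 0.000106). C3AR1, the receptor for the C3a fragment, went from 21.3, 22.4 and 12 to 168, 294 and 325 CPM, a rise of 3.82 ± 0.49 (adjusted p = 0.000202). The membrane regulator CD46, which protects the cell's own surface, fell by 1.07 ± 0.19 (adjusted p = 0.00168), from 379, 298 and 300.5 to 159, 144 and 165 CPM. CD55, another surface regulator, fell by 1.94 ± 0.47 (adjusted p = 0.0113), but had adjusted p of 0.0548 without E. faecium library 1 and 0.0593 without combined library 3. Each of these genes had the treatments apart.

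Resident macrophage genes were mostly not called, with 3 of 31 tested higher and 3 lower (9.68% against 9.49%, and 9.68% against 6.35%), shares near the background, and a median of -0.12. SIGLEC1 (sialoadhesin), a lectin known as an interferon-responsive gene in human cells, went from 139, 220.4 and 110.5 to 690.5, 773 and 647 CPM and rose by 2.17 ± 0.36 (adjusted p = 0.00105). AXL, a receptor for dying cells, went from 124, 132 and 163 to 414, 527 and 583 CPM and rose by 1.86 ± 0.23 (adjusted p = 0.000126). FABP5, a fatty acid carrier, fell by 1.35 ± 0.28 (adjusted p = 0.00452), from 698, 585 and 759 to 325, 205 and 269 CPM, and SLCO2B1, an organic anion transporter, fell by 1.85 ± 0.29 (adjusted p = 0.000761), from 50.6, 119 and 63.6 to 22.9, 17.1 and 24.4 CPM. Other genes of macrophage identity that were not called include CSF1R (-0.49 ± 0.26, adjusted p = 0.244), MRC1 (0.73 ± 0.40, 0.252), CD163 (-0.94 ± 0.47, 0.205), PPARG (-0.19 ± 0.47, 0.843) and MARCO (-0.01 ± 1.09, 0.998). MARCO ran from 14.3 to 76.9 CPM in E. faecium and from 9.97 to 83.4 CPM with poly I:C.

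Few genes were called in the metabolic and housekeeping lists. No gene was called in 75 cytosolic ribosomal proteins (median -0.04), 22 genes of cholesterol synthesis (-0.25) or 21 immediate early genes (-0.19). Of 36 tested oxidative phosphorylation genes 0 were higher and 1 lower (2.78% against 6.35%, median -0.11), and of 24 glycolysis genes 0 and 1 (4.17% against 6.35%, -0.27). Of 19 hypoxia genes 0 were higher and 2 lower (10.5% against 6.35%, -0.27), and of 38 cell cycle genes 1 and 3 (2.63% against 9.49%, and 7.89% against 6.35%, -0.16). Lysosome and phagocytosis had 2 higher and 2 lower of 34 tested (5.88% each, -0.04), where the proton pump subunit ATP6V0A1 fell by 1.16 ± 0.24 (adjusted p = 0.00376), from 37.4, 48.5 and 43.2 to 20.8, 17 and 19.9 CPM. Lipid handling had 1 higher and 1 lower of 19 tested (5.26% each). In that list ACACA, which commits acetyl-CoA to fatty acid synthesis, fell by 1.63 ± 0.33 (adjusted p = 0.00399), from 59.4, 49.8 and 55.8 to 22.3, 16.2 and 14.8 CPM.

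In each of the remaining lists 2 or 3 genes were called higher. HMOX1, the haem-degrading enzyme, was the leading rise among 20 oxidative stress genes, of which 2 were higher and 1 lower (10% against 9.49%, and 5% against 6.35%). It went from 139, 330.2 and 294 to 1230, 692 and 1497 CPM (adjusted p = 0.00509). SLC39A14, a zinc importer induced in inflammation, rose by 1.85 ± 0.38 (adjusted p = 0.0042), 2 of 8 tested metallothionein and zinc transport genes being higher and 0 lower (25.0% against 9.49%). Prostaglandin and leukotriene genes had 3 higher and 0 lower of 16 (18.8% against 9.49%), and matrix and coagulation genes 3 and 0 of 23 (13.0% against 9.49%). Under library totals alone these lists had 1, 1, 2 and 1 called higher and 4, 1, 1 and 0 lower. Among all 13592 genes, 728 were higher and 2631 lower under that scaling. MTF1, the other zinc list call, had an edgeR adjusted p of 0.061 to 0.195 with any single library left out. Without E. faecium library 2 all 3 matrix calls were lost, PLAUR, MMP1 and TIMP1 (adjusted p = 0.111, 0.163 and 0.174). The prostaglandin and leukotriene calls LTA4H and PTGS1 were lost there too (0.0632 and 0.131).

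Several of the largest rises, named by the rule of the 15 highest and 15 lowest fold changes with libraries apart, were in genes nearly silent without poly I:C. FRZB, a secreted Wnt antagonist, had no count in E. faecium and 1.27, 2.43 and 4.02 CPM with poly I:C, at least 63.6-fold higher against a floor of 3 counts over the group. TNP2, LHX5 and TCF21 also had no count in E. faecium and were at least 37.7, 30.6 and 30.2-fold higher. All 4 were below 5 CPM in each library with poly I:C. MRAP2, an accessory protein of melanocortin receptors, went from 0.147, 0 and 0.109 to 31, 28.3 and 10.6 CPM (adjusted p = 0.0004). CHRM3, the muscarinic acetylcholine receptor M3, went from 0.295, 0.386 and 0.327 to 13.8, 32.9 and 29.3 CPM, a rise of 6.19 ± 0.57 (adjusted p = 2.52e-05). ASS1, which rebuilds arginine from citrulline, went from 0, 0.22 and 0.0545 to 3.46, 9.76 and 9.91 CPM (adjusted p = 0.000512). Few reads back the E. faecium side of these genes: TIMD4, a receptor for phosphatidylserine on dying cells, was 126-fold higher by summed CPM with a 95% counting interval of 42.6 to 612, and PDGFRL 97.7-fold higher with an interval of 33.0 to 477. Such intervals cover counting error only.

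The lowest fold changes were smaller in size. FAM105A, of the OTU deubiquitinase family, fell by 3.08 ± 0.30 (adjusted p = 4.12e-05), from 9.24, 14.4 and 9.65 to 1.18, 1.6 and 1.13 CPM. PLCL1, an inactive relative of phospholipase C, fell by 2.89 ± 0.46 (adjusted p = 0.000768), from 67.1, 66.7 and 56 to 13.1, 3.84 and 8.64 CPM. UBASH3B, a phosphatase that restrains immune receptor signalling, fell by 2.71 ± 0.47 (adjusted p = 0.0012), from 159, 68 and 154 to 11.3, 16.3 and 30.7 CPM. VENTX, a homeobox factor linked to macrophage differentiation in human cells, fell by 2.66 ± 0.32, from 14.3, 16.1 and 14.7 to 3.01, 2.19 and 1.91 CPM. PHEX fell by 3.21 ± 0.64, GPR146 by 2.83 ± 0.54 and ANKRD13D by 2.55 ± 0.34. These 7 genes were called without any single library. GDPD1, with the lowest value of the rule, rested on E. faecium library 3, with 6.32 CPM against under 1 CPM in the others. Its adjusted p was 0.029, but 0.516 without that library and 0.0781, 0.103 and 0.0885 without combined libraries 1, 2 and 3.

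**Figure D4:**
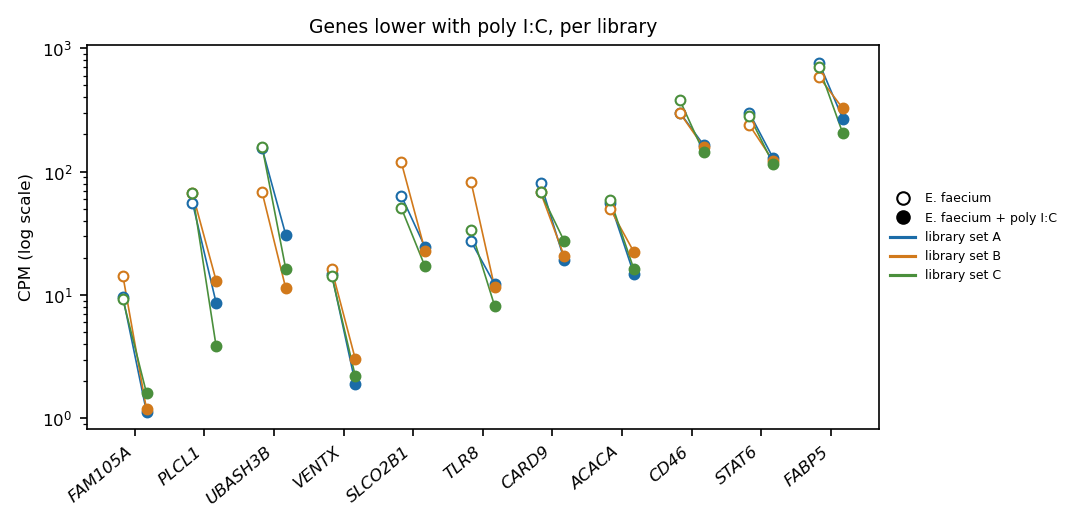
CPM on a log scale in each E. faecium library (open) and each library with poly I:C added (filled) for genes lower with poly I:C, with lines joining libraries of the same set. FAM105A, for example, has 9.24 to 14.4 CPM in E. faecium and 1.13 to 1.60 CPM with poly I:C; separate groups were a condition for naming the genes with the lowest changes.

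The same addition was measured without bacteria, as poly I:C against control, in libraries not shared with those above. Both comparisons carry the same pig numbers and were estimated in the same fit, so they are not independent of each other. There 22.5% of genes were called, 1757 higher (12.9%) and 1298 lower (9.55%). Of the 1290 genes higher with E. faecium present, 1205 were also called higher without it, which is 93.4% of the former and 68.6% of the latter. Of the 863 lower genes 767 were shared, 88.9% of the former and 59.1% of the latter, and 0 genes were called in opposite directions. The genes higher with E. faecium had a median change of 1.46 with it and 1.64 without it, and the lower genes -1.16 and -1.24. Across all genes tested, which are not independent replicates, the 2 sets of fold changes had a Pearson r of 0.91.

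The difference between both poly I:C changes was tested for each gene as an interaction, and 0 genes were called by edgeR. At an unadjusted p of 0.05 there were 95 genes and the smallest adjusted p was 1. DESeq2 called 0 as well, with 117 genes at the unadjusted threshold and a smallest adjusted p of 0.24, and with the library sets as a block edgeR called 0 with 301 genes. Each of these counts is below 0.05 of the 13592 genes tested, the share due where no gene differs. The tests were thus conservative, and 0 calls do not show both poly I:C changes to be equal. The antiviral effectors had a median of 2.09 with E. faecium and 2.45 without it, where 49 of 49 were called higher. Cytosolic ribosomal proteins, with 0 of 75 called in either comparison, also had the lower median with E. faecium, at -0.04 against 0.31. For proinflammatory cytokines the medians were 2.05 and 3.82, with 10 and 14 of 25 called higher (the first median was 3.41 without E. faecium library 1), and for chemokines 1.28 and 2.74, with 7 and 14 of 22.

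IL23A had one of the lowest unadjusted p among the called genes, with a change of 2.80 ± 0.87 with E. faecium and 7.53 ± 1.09 without it, an interaction of -4.73 ± 1.22 (unadjusted p = 0.00145, adjusted p = 1 in edgeR). CCL20 changed by 3.46 ± 0.87 and 7.41 ± 1.06 (interaction -3.96 ± 1.18, unadjusted p = 0.0042, adjusted p = 1), and SOCS1 by 2.12 ± 0.41 and 3.71 ± 0.44 (interaction -1.60 ± 0.57, unadjusted p = 0.0125, adjusted p = 1). TNF, not called with E. faecium, changed by 1.68 ± 0.86 and 6.06 ± 1.05 (interaction -4.38 ± 1.24, unadjusted p = 0.00294, adjusted p = 1). All 4 values were smaller with the bacterium, and none of these differences passed the test. The TNF change with E. faecium was 3.72 when E. faecium library 1 was left out. Fold changes alone do not tell a higher level in E. faecium from a lower level in the combined libraries. The 2 changes of other named genes were: CXCL11 with 8.11 ± 0.95 and 9.03 ± 0.98, DDX58 with 4.02 ± 0.60 and 4.74 ± 0.62, C1R with 3.34 ± 0.40 and 3.49 ± 0.40, CHRM3 with 6.19 ± 0.57 and 4.81 ± 0.52, and FAM105A with -3.08 ± 0.30 and -3.43 ± 0.30.

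**Figure D5:**
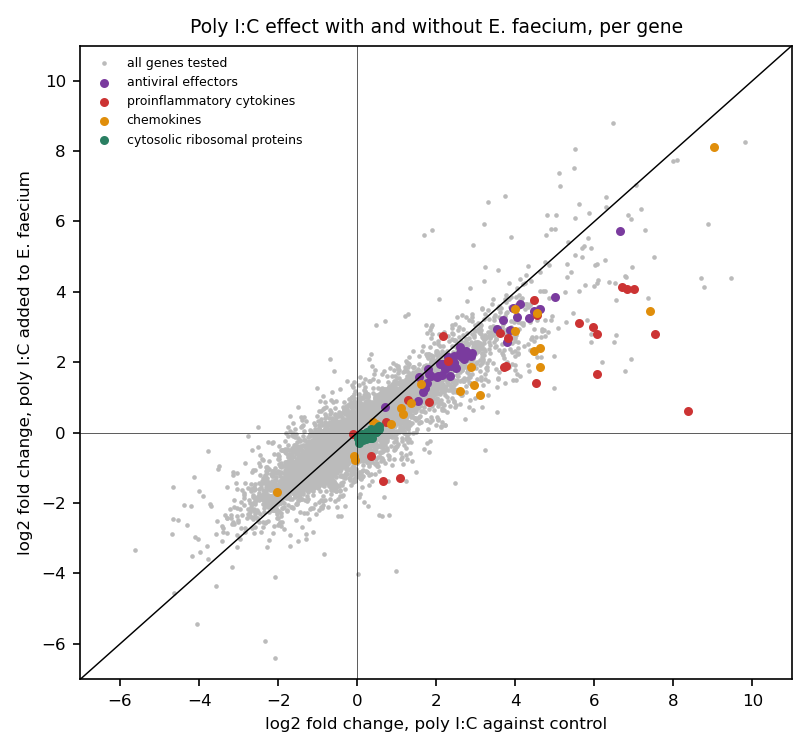
Log2 fold change of poly I:C added to E. faecium (vertical axis) against that of poly I:C over control (horizontal axis) for the 13592 genes tested, with antiviral effectors, proinflammatory cytokines, chemokines and ribosomal proteins in colour and a line of equal change. Antiviral effectors have medians of 2.09 on the vertical and 2.45 on the horizontal axis, proinflammatory cytokines 2.05 and 3.82, chemokines 1.28 and 2.74, and ribosomal proteins -0.04 and 0.31.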

How the data were processed

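Total RNA of alveolar macrophages was sequenced, per the labels' protocols, on an Illumina platform, and the authors deposited 1 table of raw read counts per gene (30686 rows, 18 libraries), not normalized. The submitters' processing notes name the build Sscrofa11.1 and DESeq2; no aligner, counter or strand setting is named in the sources used here, so reads of overlapping and antisense genes cannot be told apart. A RefSeq symbol and Sscrofa11.1 coordinates were matched for 30335 rows by gene ID; the 351 rows without one took 0.515 to 1.04% of the counts of each library and stayed in the tests. Libraries were grouped by their treatment labels.

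Counts were fitted in R 4.3.3 with edgeR 4.0.16 (limma 3.58.1): TMM, filterByExpr (minimum count 10, 6 treatments), 1 mean per treatment over all 18 libraries, quasi-likelihood tests, two-sided, Benjamini-Hochberg adjustment over 13592 genes, no block. The contrasts were combined treatment minus E. faecium, poly I:C minus control, and their difference. The procedure was tested on simulated data for the first contrast only, with counts drawn independently for each library and no set deviations. The labels' pig numbers 1 and 2 did not line up between these treatments (correlations in the report), and which libraries share an animal is not known. A block by number and a block by library set were therefore alternatives, as were other scalings, filters, DESeq2 1.42.0, the 6 libraries alone and each library left out. A set was chosen from the residuals of the same data, which can make p-values of its block too small, by an amount that was not tested.

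Genes named are the 15 highest and 15 lowest called changes with libraries apart and a mean of at least 1 CPM, up to 6 lowest p per gene list, a fixed set of interferon, cytokine and macrophage genes, and the 10 lowest interaction p; other names, such as HERC5, IFIT3, CCL4, CCL2, B2M, HSPA5, TLR4, BST2, IFI35, UBA7, OTULIN, CYLD and IFNAR1, were added after their values were seen. The members, lists and named genes were chosen with earlier results of these data known. Some genes that this rule names are not reported here. The labels do not say whether libraries of a treatment come from separate cultures beyond the pig number. Fold changes against a group at 0 use a floor of 3 counts over the group.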

Additional observations from a re-analysis of the deposited data

How the results depend on the processing

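Of the 2153 genes called for poly I:C added to E. faecium, 1290 higher and 863 lower, library totals alone gave 3359, 728 and 2631, and a block by library set gave 4744, 2399 and 2345. Leaving out 1 library at a time gave 1215 to 1954 calls in all, 769 to 1173 higher and 402 to 781 lower; the lowest totals were 1215 without E. faecium library 3, 1247 without E. faecium library 2, and 1265 and 1288 without combined libraries 2 and 3. The replicate block by pig number gave 1959 calls, 1207 higher and 752 lower, of which 1166 and 730 were among the main calls; the correlation of same-numbered libraries was negative for numbers 1 and 2. The set block kept all 1290 and 863. DESeq2 called 1618 higher and 1176 lower, RLE scaling 1301 and 843, no filter 1087 and 613, a filter of at least 50 counts in 3 libraries 1324 and 854, and the 6 libraries alone 1124 and 584. For poly I:C against control the total of 3055 became 4789 under library totals and 5668 under the set block, with 952 and 2835 higher and 3837 and 2833 lower. The cause of these shifts was not tested; library totals alone move the median of all genes to -0.45. The interaction had 0 calls under every alternative run, and no named gene that was called changed direction under any of them.

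Of the 264 named genes, the calls lost were 45 without E. faecium library 3, 42 without E. faecium library 2, 37, 34 and 21 without combined libraries 3, 2 and 1, 14 without E. faecium library 1, 26 under library totals, 17 with the 6 libraries alone, 9 with no filter, 7 under upper-quartile scaling and 5 under the block by number. With 3 libraries a side, genes of few counts in E. faecium have wide counting intervals, and the size of their rise is poorly fixed.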

Other observations

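The genes of this section were chosen after their values had been seen. Type I interferon genes other than IFNB1 were also present in the combined libraries. IFN-ALPHA-10 had no count in E. faecium and 0.774, 0.291 and 0.0981 CPM with poly I:C (edgeR adjusted p = 0.0123), and IFN-ALPHA-5 no count and 0.546, 0.34 and 0.147 CPM (adjusted p = 0.0281). IFN-ALPHAOMEGA went from 0.737, 0.0276 and 0.109 to 12.4, 2.96 and 2.45 CPM, a rise of 4.41 ± 1.30 (adjusted p = 0.0356), and IFNA1 from 0.491, 0.0276 and 0.0545 to 6.7, 1.65 and 1.32 CPM without a call (4.13 ± 1.35, adjusted p = 0.054). In all 4 genes combined library 1 was the highest and combined library 3 the lowest with poly I:C, the order seen for IFNB1 too. These genes lie together on chromosome 1 and are near copies, so that reads may be split between them.

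Genes outside the lists were among those with the lowest p. ILDR1, a receptor of cell contacts, went from 1.97, 1.19 and 0.981 to 14.7, 19.7 and 25.5 CPM, a rise of 3.85 ± 0.33 (edgeR adjusted p = 2.52e-05). ARHGAP15, which switches off the GTPase Rac, rose by 3.92 ± 0.36 from 4.42, 3.58 and 3.11 to 35.5, 61.6 and 70.9 CPM, and the transcriptional regulator TSC22D1 by 2.57 ± 0.24 from 3.98, 5.73 and 3.6 to 30.6, 22.3 and 26.7 CPM. TCFL5, a basic helix-loop-helix factor, fell by 2.51 ± 0.22, from 11.9, 19.5 and 14.9 to 2.92, 2.87 and 2.35 CPM.

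Some genes of DNA replication and repair rose, although 1 of 38 genes of the cell cycle list was called higher and 3 lower. BRCA1, of homologous recombination, went from 5.9, 5.1 and 3.33 to 31.8, 40.4 and 30.2 CPM, a rise of 2.83 ± 0.32 (edgeR adjusted p = 6.81e-05). ATAD5, which unloads the sliding clamp PCNA, rose by 3.23 ± 0.34 from 3.74, 2.92 and 2.67 to 23.8, 37.5 and 26.3 CPM, and DBF4, the activator of the replication kinase CDC7, by 1.98 ± 0.21 from 18.7, 13.4 and 11 to 53.4, 57.1 and 59.6 CPM. HMMR, a spindle protein and hyaluronan receptor, rose by 3.55 ± 0.32 from 1.62, 1.9 and 3.11 to 18.7, 29.4 and 29.3 CPM. The poly I:C changes without bacteria were 2.78 ± 0.31 for BRCA1, 3.22 ± 0.34 for ATAD5, 2.43 ± 0.21 for DBF4 and 3.15 ± 0.31 for HMMR. CCDC126, which ends at 92419241 on chromosome 9, next to the start of DBF4 at 92449385 (build Sscrofa11.1), rose by 2.89 ± 0.27 from 15.2, 7.71 and 12.8 to 73, 92.5 and 98.2 CPM.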
